A study of Mus musculus with 10 samples.

Results

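The genes described here build and regulate the actin cytoskeleton and the focal adhesions of mouse OP9 stromal cells. They form a list of 38 genes, matched by symbol to a table of 26888 genes, and 37 of the 38 had a row. Myl12a was not analysed here. All 37 exceeded 0.5 RPM (reads of a gene scaled to the reads assigned to all genes) in at least 1 library, as did 16933 genes of the table.

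OP9 is a stromal line from calvaria of (C57BL/6xC3H)F2-op/op mice, foetal by the labels and newborn by the paper, and all samples came from this line. RNA was sequenced from 6 reaggregates, in which cells dispersed with trypsin were packed together and kept for 48 h on nitrocellulose filters at the liquid-gas interface, and from 4 flat cultures grown submersed in medium. The comparison asks how the stromal transcriptome differs between these culture forms. Reaggregates 2, 4 and 6 received IL-3, at a stated dose of 200 µg/µl, and reaggregates 1, 3 and 5 did not. Flat cultures 2 and 4 carry the label of the de Bruijn lab, and flat cultures 1 and 3 carry no such label. The methods trace cells in flat culture to stocks of the Medvinsky or the de Bruijn group, and the passage number of each library was not labelled. The source of the reaggregated cells was not labelled, so culture form and cell source cannot be told apart in full. Reaggregates were released with collagenase and dispase, so that culture form, harvest and the time since trypsin also go together.

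Actin monomers polymerise into filaments that crosslinkers bundle, tropomyosins coat and non-muscle myosin II contracts. Integrins join these filaments to the matrix through focal adhesions, where talin, vinculin, paxillin and focal adhesion kinase gather, and LIM domain proteins bind at both structures. Free actin monomers hold the cofactors Mkl1 and Mkl2 in the cytoplasm, and when monomers are used up in filaments these cofactors enter the nucleus and act with the transcription factor Srf on many cytoskeletal genes.

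Depth was inferred by taking the most frequent positive RPM value of each library as 1 read. It came to between 7.35 and 9.43 M reads on genes in reaggregates and between 8.26 and 8.70 M in flat cultures. At this depth 3 reads, taken as the smallest amount shown, were worth between 0.318 and 0.408 RPM, which covers counting error only. Of the 37 genes, Fhl1 alone stayed near this floor, with a highest value of 0.85 RPM. Across genes, which are not independent replicates, log2 values of flat cultures 2 and 4 had a Pearson's r of 0.984 with each other, and between 0.913 and 0.931 with flat cultures 1 and 3. Flat culture 3 had an r between 0.952 and 0.966 with the reaggregates, beside 0.965 with flat culture 1. Nothing in the labels says that the libraries of a group came from separate cultures, so p-values measure the spread between these libraries, which may be technical. In these bulk samples, fewer cells of a type and less RNA per cell cannot be told apart.

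Of the 37 cytoskeletal genes, 32 were not called between reaggregates and flat cultures, and 21 had a log2 fold change within 0.5 of 0 in either direction. A gene was called when the limma test on log2(RPM + 0.5) gave a fold change of at least 2 and an adjusted p of at most 0.05. Reaggregates were lower for 3 of the 37 genes, Actg2, Tpm2 and Tpm4, or 8.11%, where 6.53% of all genes tested were called lower. They were higher for 2, Lima1 and Pdlim7, or 5.41%, against 7.32% of all genes. Without regard to the size of the change, 7 genes were lower at an adjusted p of at most 0.05 and 5 were higher, or 18.9% and 13.5%, beside 15.7% and 13.6% of all genes. Of these 12 genes only Tpm2, Tpm4 and Lima1 kept an adjusted p of at most 0.05 when consecutive reaggregates, which are very alike, were averaged. All reaggregates lay below all flat cultures for 7 genes, or 18.9% (11.4% of all genes), and above them for 2, or 5.41% (7.8% of all genes). The median log2 fold change was -0.10 over the 37 genes and 0.04 over all genes, and 20 of the 37 were lower. The shares called are near those of the whole table, so by calls between culture forms the list did not stand out from it. Single flat cultures did stand out. Flat culture 1 was the lowest library for 43.2% of the 37 genes (15% of all genes). Flat culture 2 was the highest for 35.1% (10.8% of all genes). Together the 37 genes took 1.63% ± 0.179 of the reads in reaggregates (SD, n = 6) and 1.82% ± 0.309 in flat cultures (SD, n = 4).

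**Figure D1:**
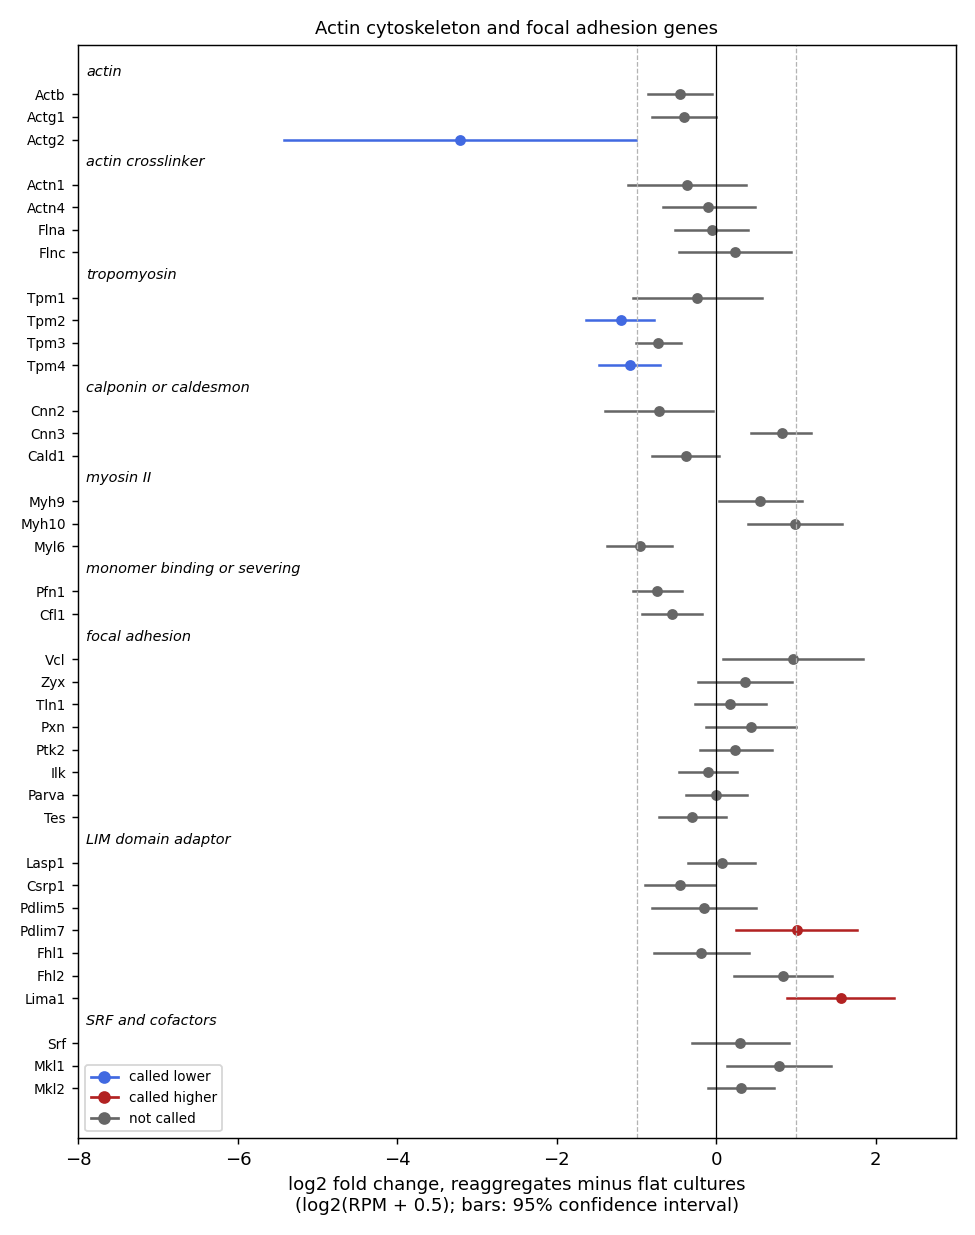
Log2 fold change of each of the 37 genes, reaggregates minus flat cultures, on the log2(RPM + 0.5) scale, grouped by role; points are estimates, bars are 95% confidence intervals and dashed lines mark a fold change of 2. Blue marks the 3 genes called lower, red the 2 called higher and grey the 32 not called.

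The cytoplasmic actins Actb and Actg1 were among the most abundant messages of the list. Per kilobase of exon, Actg1, the cytoplasmic gamma actin, averaged 808 RPM in reaggregates and 1090 in flat cultures, and Actb, the cytoplasmic beta actin, 546 and 751. In reaggregates 1 to 6 Actb stood at 1340, 1340, 1780, 1670, 1330 and 1310 RPM, and flat cultures 1 to 4 had 1610, 2420, 2050 and 1970 RPM. The groups overlapped, with reaggregates 3 and 4 above flat culture 1, and the log2 fold change of -0.46 (SE 0.185, adjusted p = 0.0805) did not pass. For Actg1 the reaggregates had 2060, 1980, 2220, 2190, 2160 and 2280 RPM, and the flat cultures 2330, 3580, 2800 and 2850 RPM. Here every reaggregate was below every flat culture, although the gap to flat culture 1 was small, and the log2 fold change of -0.41 (SE 0.183, adjusted p = 0.107) did not pass either.

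Actg2, the gamma actin of smooth muscle, had the widest range of the list. Reaggregates 1 to 6 had 6.29, 5.72, 16.8, 16.4, 0.651 and 1.49 RPM of it, and flat cultures 1 to 4 had 7.94, 181, 22.6 and 193 RPM. Flat cultures 2 and 4 were far above all other libraries, whereas flat culture 1 lay below reaggregates 3 and 4. The log2 fold change was -3.21 (SE 1.01, 95% interval -5.42 to -1.01, adjusted p = 0.0338). The call was lost without flat culture 2 (-2.60, adjusted p = 0.0972) or 4 (-2.57, 0.117), and without reaggregate 1 (-3.27, 0.057), 2 (-3.25, 0.0586), 5 (-2.76, 0.0559) or 6 (-2.92, 0.057). Its log2 fold change was -4.08 without flat culture 1, -5.09 against the de Bruijn flat cultures only and -1.34 against the others. Over all alternatives its adjusted p ran from 0.0019 to 0.393. Reads that fit several of the near-identical actin genes had been divided among them by the authors, and all actins are uncertain to that extent, as are Pfn1, Cfl1 and Tpm3, which have processed copies in the genome.

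Of the 4 tropomyosins, the rod-like proteins along the actin filament, Tpm2 and Tpm4 were called lower. Tpm2 stood at 108, 111, 95.7, 83.5, 93.9 and 99.0 RPM in the reaggregates, while the flat cultures had 183, 245, 169 and 348 RPM. All reaggregates lay below all flat cultures, of which the 4th was highest. Its log2 fold change was -1.20 (SE 0.194, adjusted p = 0.00151). Tpm4 measured 376, 388, 486, 499, 363 and 410 RPM in the reaggregates, while the flat cultures had 932, 828, 680 and 1170 RPM. Again the groups did not overlap, with a log2 fold change of -1.08 (SE 0.177, adjusted p = 0.00162). Both fell short of a fold change of 2 without flat culture 4, at -1.0 for Tpm2 (adjusted p = 0.0028) and -0.95 for Tpm4 (0.0053). The Tpm4 call was also lost with quantile normalization (-0.99, adjusted p = 0.00173) and with the IL-3 reaggregates only (-1.04, 0.0591). Over the alternatives, the adjusted p ran from 6.25e-05 to 0.049 for Tpm2 and from 0.000462 to 0.0591 for Tpm4. Tpm3 was lower by less, at 156 ± 5.13 RPM in reaggregates (SD, n = 6) and 262 ± 44.8 RPM in flat cultures (SD, n = 4), without overlap (log2 fold change -0.73, adjusted p = 0.00281). Tpm1 did not follow, with means of 399 RPM and 432 RPM, the reaggregates ranging from 194 to 673 RPM on either side of the flat cultures.

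Lower levels without overlap were also seen for Pfn1 and Cfl1. For Cfl2 and Dstn, relatives of Cfl1, the groups overlapped. Cfl2 was lower (log2 fold change -0.61, adjusted p = 0.0206), whereas Dstn did not pass (-0.25, 0.362). Pfn1 is profilin, which loads monomers for growth, and averaged 399 ± 51.5 RPM in reaggregates and 666 ± 55.3 RPM in flat cultures (log2 fold change -0.74, adjusted p = 0.00374). Cfl1, cofilin, which severs filaments, averaged 671 ± 107 RPM and 984 ± 158 RPM (log2 fold change -0.55, adjusted p = 0.0323), but its adjusted p was above 0.05 without flat culture 2 (0.0836) or 4 (0.0819) and without any of reaggregates 1 to 4. Neither reached a fold change of 2.

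Myosin II was divided. The name Myl6, a light chain, belongs in the table to an identifier that the annotation lists as Gm8894, a copy of 456 bases in a single exon at chr14:56039106-56039561, and the gene of that name on chromosome 10 has no value of its own there. With reads divided among copies, it is uncertain which of them its values describe. Under this name the level averaged 94.7 ± 10.6 RPM in reaggregates and 190 ± 51.5 RPM in flat cultures, with every reaggregate below every flat culture (log2 fold change -0.96, adjusted p = 0.00389). The change passed a fold of 2 without flat culture 3 (log2 fold change -1.17, adjusted p = 0.000217) or without reaggregate 6 (-1.01, 0.00585). The heavy chain Myh10 went the other way, at 196 ± 46.0 RPM in reaggregates and 104 ± 52.5 RPM in flat cultures (log2 fold change 0.99, adjusted p = 0.0187). Just short of a fold of 2, it was called without flat culture 3 (1.3, adjusted p = 0.000738), reaggregate 5 (1.05, 0.0226) or reaggregate 6 (1.07, 0.0179), while its adjusted p rose to 0.0514 without flat culture 1 and 0.067 without flat culture 4. Flat culture 3, at 182 RPM, was within the range of the reaggregates for Myh10. The other heavy chain, Myh9, averaged 1980 RPM and 1410 RPM and did not pass (adjusted p = 0.101).

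Among the crosslinkers, which join filaments into bundles and networks, no gene was called. The alpha-actinins Actn1 and Actn4 averaged 359 RPM and 567 RPM in reaggregates and 527 RPM and 656 RPM in flat cultures. The filamins Flna and Flnc averaged 1540 RPM and 380 RPM in reaggregates and 1650 RPM and 352 RPM in flat cultures. All 4 had their lowest value of the 10 libraries in flat culture 1 and their highest in flat culture 2, for example 199 and 896 RPM for Actn1, so that the reaggregates lay between the flat cultures, an order noticed after the values were seen.

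The calponins and caldesmon regulate the binding of myosin to actin. Cnn3 averaged 412 ± 33.4 RPM in reaggregates and 239 ± 61.3 RPM in flat cultures, with every reaggregate above every flat culture, and changed by less than 2-fold (log2 fold change 0.82, adjusted p = 0.00574). Cnn2 pointed the other way, with means of 226 RPM and 404 RPM, and did not pass (log2 fold change -0.72, adjusted p = 0.099) but was called without flat culture 1 (-1.03, 0.0195). Cald1 averaged 1100 RPM and 1460 RPM and was not called (adjusted p = 0.153).

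None of the 8 genes of the focal adhesion core was called. Vcl, vinculin, which ties talin to actin, measured from 379 to 1120 RPM in reaggregates and from 158 to 609 RPM in flat cultures. Its means were 702 ± 317 RPM and 368 ± 185 RPM, and the log2 fold change of 0.96 did not pass (adjusted p = 0.0888). It was called without flat culture 3 (1.25, adjusted p = 0.0273) and was 0.61 without flat culture 4. Zyx, zyxin, averaged 284 RPM in reaggregates and 232 RPM in flat cultures. Tln1, talin, which activates integrins, averaged 352 RPM and 323 RPM, and Pxn, paxillin, a scaffold, 65.6 RPM and 51.8 RPM. Ptk2, the focal adhesion kinase, averaged 118 RPM and 105 RPM. Means were 55.6 RPM and 61.0 RPM for Ilk, integrin-linked kinase, 268 RPM and 273 RPM for its partner Parva, and 93.4 RPM and 120 RPM for Tes, testin. For these 7 genes the groups overlapped and the log2 fold change lay between -0.30 and 0.44.

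The LIM domain adaptors held both genes called higher. Lima1, also named EPLIN, which stabilises filaments and links them to cadherin junctions, measured 701, 671, 1240, 1310, 496 and 524 RPM in reaggregates 1 to 6, while flat cultures 1 to 4 had 216, 280, 367 and 201 RPM. Every reaggregate was above every flat culture, and reaggregates 3 and 4 were highest. The log2 fold change was 1.56 (SE 0.308, 95% interval 0.89 to 2.23, adjusted p = 0.00439), and Lima1 was called in each of the 23 alternatives, with an adjusted p between 0.00214 and 0.0467. Pdlim7, which binds tropomyosin-coated filaments, measured 88.1, 91.6, 129, 115, 45.3 and 40.1 RPM in the reaggregates, while the flat cultures had 25.9, 35.2, 55.9 and 42.5 RPM. Reaggregates 5 and 6 lay within the range of the flat cultures. Its log2 fold change of 1.01 (SE 0.347, adjusted p = 0.0479) was at the threshold, and the call was lost without flat culture 1 (0.82, adjusted p = 0.123), 2 (0.97, 0.0979) or 4 (1.05, 0.0915) and without reaggregate 1 (0.97, 0.0885), 2 (0.96, 0.0904), 3 (0.86, 0.0904) or 4 (0.89, 0.0923). Over all alternatives its adjusted p ran from 0.00507 to 0.177.

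Fhl2, a coactivator that shuttles from adhesions to the nucleus, averaged 119 ± 39.8 RPM in reaggregates and 64.8 ± 19.4 RPM in flat cultures (log2 fold change 0.84, adjusted p = 0.044). It rose past a fold of 2 without flat culture 3 (1.02, adjusted p = 0.017), and its adjusted p was above 0.05 without flat culture 1 (0.108), 2 (0.105) or 4 (0.0894) and without reaggregate 1 (0.0834), 2 (0.086), 3 (0.086) or 4 (0.0867). The remaining adaptors did not pass. Lasp1 averaged 317 RPM and 313 RPM, Csrp1 153 RPM and 220 RPM, and Pdlim5 81.2 RPM and 101 RPM. Fhl1, at means of 0.27 and 0.389 RPM, was close to the floor in both groups, and its fold change is not read as a difference.

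Srf and its actin-regulated cofactors did not pass. Srf measured 57.7, 62.3, 82.8, 84.8, 37.5 and 40.1 RPM in reaggregates 1 to 6, against 29.8, 54.3, 61.2 and 49.3 RPM for flat cultures 1 to 4, a log2 fold change of 0.30 (SE 0.277, adjusted p = 0.421). Reaggregates 3 and 4 were above all flat cultures and reaggregates 5 and 6 were below 3 of the 4. Mkl1 measured 133, 133, 104, 95.5, 97.2 and 86.5 RPM in the reaggregates, while the flat cultures had 59.4, 53.2, 129 and 34.7 RPM. Flat culture 3 was level with reaggregates 1 and 2, and the other flat cultures were below every reaggregate. The log2 fold change of 0.79 (SE 0.297, adjusted p = 0.063) passed without flat culture 3 (1.15, adjusted p = 0.00163) and was 0.52 without flat culture 4. Mkl2 measured 33.7, 38.4, 36.4, 35.8, 31.9 and 31.4 RPM in the reaggregates, against 19.2, 38.3, 32.5 and 24.7 RPM for the flat cultures, with overlap (log2 fold change 0.31, SE 0.186, adjusted p = 0.217).

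**Figure D2:**
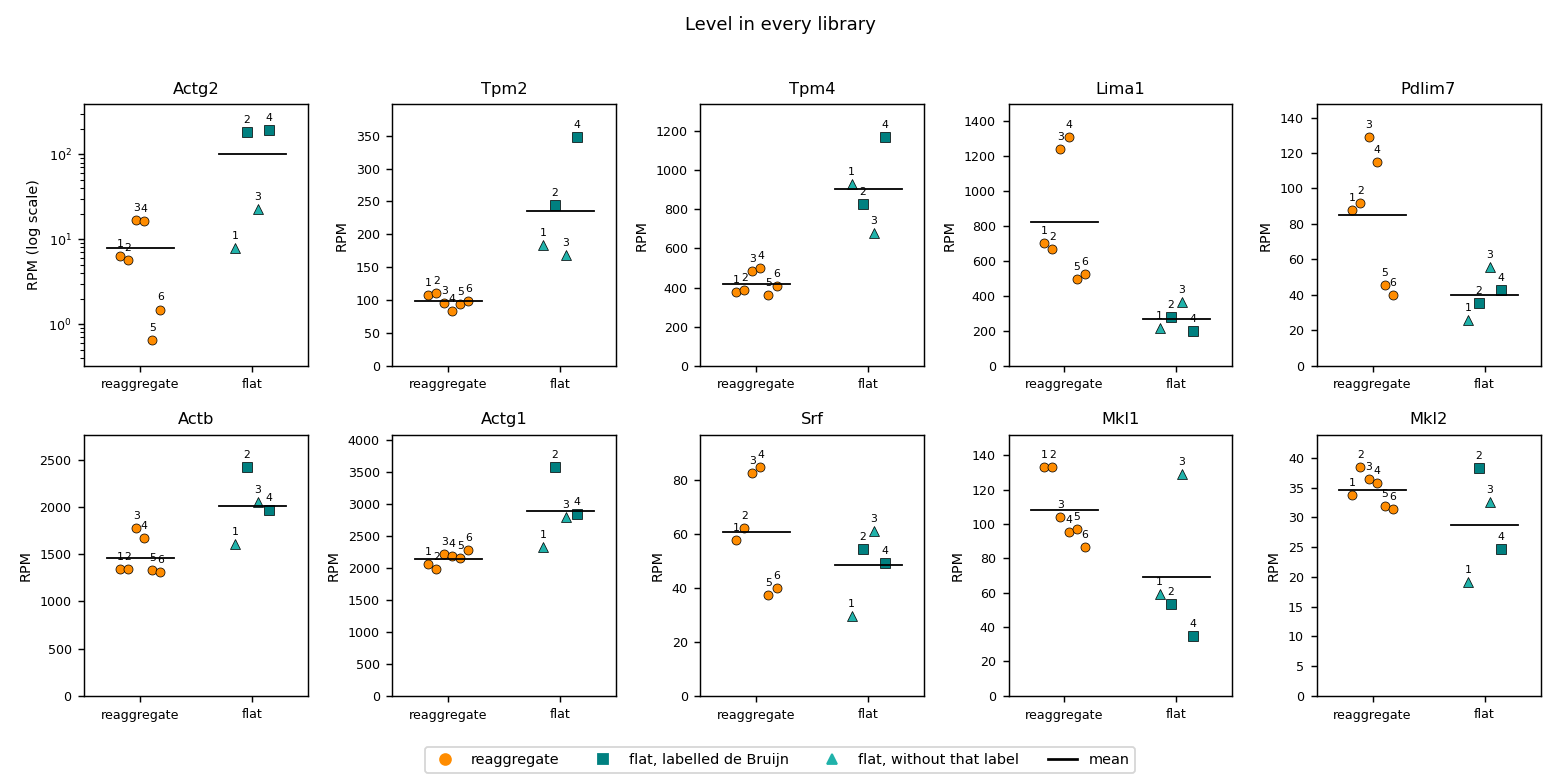
RPM in every library, numbered by replicate, for the 5 genes called between culture forms, for Actb and Actg1 and for Srf, Mkl1 and Mkl2; lines mark group means, the axis of Actg2 is on a log scale and the others start at 0. Actg2 reached 181 and 193 RPM in flat cultures 2 and 4, marked as squares, and 22.6 RPM or less elsewhere.

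How many of these genes were called depended on which flat cultures served as the comparison. The same 6 reaggregates entered both comparisons, so the counts are given side by side only. Against the de Bruijn flat cultures, 6 of the 37 genes were called lower, or 16.2%, where 10.5% of all genes were, and 5 were called higher, or 13.5%, where 15.2% of all genes were. The lower genes were Actg2, Tpm2, Cnn2, Tpm4, Myl6 and Actn1, and the higher genes were Cnn3, Myh10, Mkl1, Vcl and Lima1. Against the flat cultures without that label, 0 genes were called lower, beside 6.17% of all genes, and 1, Lima1, higher, or 2.70%, beside 3.7% of all genes. Tpm2 and Tpm4 there had adjusted p of 0.00399 and 0.0113 and log2 fold changes of -0.84 and -0.93, short of a fold of 2. The median log2 fold change of the 37 genes was -0.20 and 0.17 in these comparisons, and that of all genes was 0.13 and -0.05. Leaving out 1 flat culture moved the counts too, to 0 lower and 1 higher without flat culture 4, 4 lower and 6 higher without flat culture 3, 4 lower and 1 higher without flat culture 1, and 2 lower and 1 higher without flat culture 2. Leaving out 1 reaggregate gave 2 or 3 genes lower, and 1 higher without any of the first 4 of them and 3 higher without the 5th or 6th. Shares of all genes are not given for the fits that leave out a library. Their counts are therefore not read as a result about the list.

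Compared directly, 2 libraries against 2, the de Bruijn flat cultures were higher than the other flat cultures for 1 of the 37 genes, Actg2, or 2.70%, where 1.82% of all genes were called higher. None was lower, where 3.87% of all genes were; 6 of the 37, or 16.2%, had an unadjusted p under 0.05 in limma, beside 23.0% of all genes, and of these 5 were higher and 1 lower in the de Bruijn cultures. For Actg2 the difference on the log2 scale was 3.75 (adjusted p = 0.0203). The call was lost without flat culture 1 (3.02, adjusted p = 0.0613), 2 (3.79, 0.24), 3 (4.47, 0.0815) or 4 (3.70, 0.246), where 1 side has a single library that is assumed to vary like the other side. The median of all genes in this comparison was -0.17, and moved to -0.06 and 0.05 with median-ratio scaling and quantile normalization, a shift of over 0.1; the median of the 37 genes was 0.31, and 25 of them were higher in the de Bruijn cultures.

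Some other contractile genes of muscle type had the same high libraries as Actg2, and some did not. Acta2, the alpha actin of smooth muscle, measured 152, 2050, 310 and 1790 RPM in flat cultures 1 to 4 and from 63.8 to 404 RPM in the reaggregates. Tagln, transgelin, measured 18.7, 589, 39.8 and 940 RPM in the flat cultures and from 4.01 to 46.6 RPM in the reaggregates. Myl9, a light chain of smooth muscle and non-muscle myosin, measured 4.49, 241, 14.4 and 263 RPM, and from 1.63 to 9.12 RPM. Of the 7 muscle-type genes tested, 4 were called higher in the de Bruijn cultures and none lower, where 1.82% and 3.87% of all genes were. The 4 were Acta1, Acta2, Actc1 and Tagln, named after their values were seen. Reads that fit several actins had been divided among them, so these actins and Actg2 cannot be taken as separate observations. Smtn went the other way, at 75.6, 59.8, 189 and 49.8 RPM in flat cultures 1 to 4, Des was level at 19.5, 16.7, 16.5 and 15.9 RPM, and Myh11 stayed at or under 0.289 RPM in every library.

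Adipocyte markers, of which 8 were measured, also had their highest sums in flat cultures 2 and 4, with summed levels of 370, 1390, 528 and 1460 RPM in flat cultures 1 to 4 and between 255 and 691 RPM in the reaggregates. Fabp4, Pparg and Cebpa were higher in flat cultures 2 and 4 than in every other library. Lpl, the most abundant of the adipocyte markers in all reaggregates, was highest in reaggregates 3 and 4, at 508 and 558 RPM. It had 254, 365, 358 and 331 RPM in flat cultures 1 to 4. Adipoq was highest in reaggregate 4, at 0.768 RPM, Retn was at 0 everywhere, and 4 of the 7 tested were called higher in the de Bruijn cultures, where 1.82% of all genes were. What part the adipocyte markers have in the level of Actg2 was not tested.

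No gene passed the test for IL-3. Between the 3 reaggregates with and the 3 without IL-3, limma called 0 of the 37 genes and 0 of all genes, or 0%, and 0 of the 37 had an unadjusted p under 0.05. Their log2 differences lay between -0.10 and 0.21. With consecutive reaggregates as a block, 0 were called and 0 had an unadjusted p under 0.05. For Actb the 95% interval was -0.50 to 0.42, for Tpm2 -0.36 to 0.30 and for Lima1 -1.07 to 1.13, all without the block, so that differences between the pairs widen them.

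Variation among reaggregates followed the consecutive numbers more than IL-3. Each consecutive pair, 1 and 2, 3 and 4, 5 and 6, holds 1 culture with and 1 without IL-3. Each gene's largest difference between the libraries of a pair had a median of 0.12 on the log2 scale over the 37 genes. The difference between the means of its highest and lowest pair had a median of 0.39. For all genes these were 0.25 and 0.47. The first measure compares single libraries and the second compares means of pairs. Reaggregates 3 and 4 were the highest pair and 5 and 6 the lowest for 21 of the 37 genes, or 56.8%, an order that 25.4% of all genes had and that was singled out after the values were seen. Differences between the pairs were large for Actg2 (log2 difference 3.50), Tpm1 (1.71), Pdlim7 (1.5), Vcl (1.48), Lima1 (1.32), Fhl2 (1.15) and Srf (1.10). Cfl1, Pfn1, Tpm3, Tln1 and Ptk2 had the opposite order, with 5 and 6 highest and 3 and 4 lowest. With each pair averaged, so that 3 samples stood against 4, the genes called were Tpm2 (adjusted p = 0.0442), Tpm4 (0.0496) and Lima1 (0.0442). The adjusted p was then 0.0687 for Myl6, 0.0713 for Tpm3, 0.0726 for Pfn1, 0.0864 for Cnn3, 0.124 for Myh10, 0.141 for Actg2, 0.147 for Pdlim7, 0.151 for Fhl2 and 0.187 for Cfl1.

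**Figure D3:**
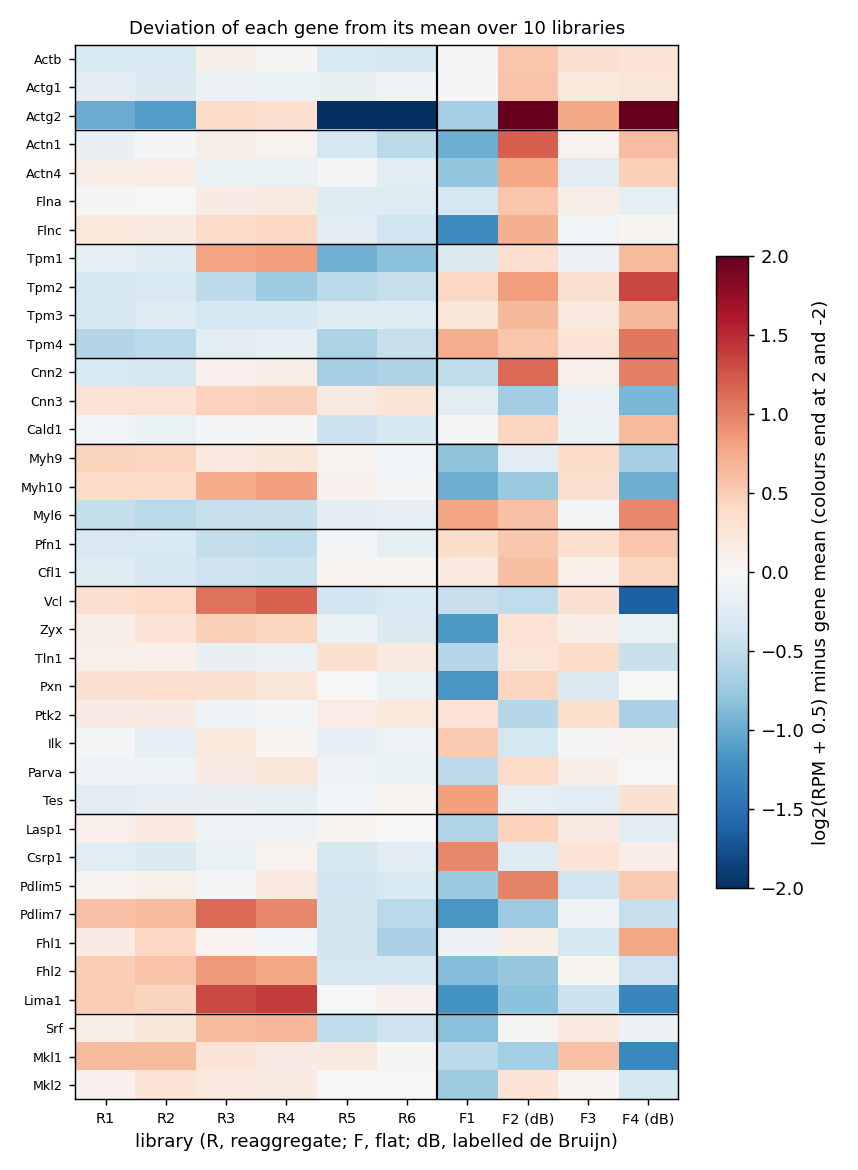
Each row is a gene and each column a library; colour gives the log2(RPM + 0.5) minus the gene's mean over the 10 libraries, and black lines part the culture forms and the roles. Reaggregates 3 and 4 are above 5 and 6 for genes such as Vcl, Lima1 and Srf, and flat cultures 2 and 4 stand out for Actg2.

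Gene length moved with the fold change. Spearman's rank correlation across genes, which are not independent replicates, between exon length and log2 fold change was 0.54 over the 37 genes, 0.30 over 16462 genes with a length and 0.43 over the 4637 of these with a mean of at least 50 RPM. Without the name Myl6, whose length is that of the copy, it was 0.51 over 36 genes. Short messages such as Pfn1 (1.03 kb) and Cfl1 (1.15 kb) were lower in reaggregates and the long ones Myh10 (10.46 kb) and Lima1 (7.17 kb) higher, but the short Fhl2 (1.56 kb) and Cnn3 (2.0 kb) were higher and the long Tpm3 (6.08 kb) lower. Over the 37 genes this correlation was 0.42 against the de Bruijn flat cultures and 0.53 against the others. This relation was examined after the values were seen, and its part in the results was not tested.

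Other genes of the same machinery were followed through lists written with the list of 37, and their counts stand beside the 6.53% of all genes called lower and 7.32% called higher. Of 17 genes of actin turnover and capping, 3 were called lower and 0 higher, and 8 were lower at an adjusted p of at most 0.05, as were 15.7% of all genes. Capg, a capping protein, averaged 126 ± 36.2 RPM in reaggregates and 306 ± 103 RPM in flat cultures (log2 fold change -1.26, adjusted p = 0.00736). Pfn2, a second profilin, averaged 29.2 RPM and 69.0 RPM (-1.20, 0.0105), and Tmsb4x, the monomer-binding thymosin beta-4, 203 RPM and 471 RPM (-1.14, 0.00731). All reaggregates were below all flat cultures for each of these. Of the 9 genes of the Arp2/3 complex, which starts branched filaments, 0 were called and 2 were lower at an adjusted p of at most 0.05.

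Of 17 formins, which start unbranched filaments, and WASP family genes, 4 were called higher and 1 lower, where 7.32% and 6.53% of all genes were. Diap3, the lower gene, averaged 21.9 RPM in reaggregates and 95.3 RPM in flat cultures, without overlap (log2 fold change -1.99, adjusted p = 0.00062). Fmnl3 averaged 318 ± 51.3 RPM in reaggregates and 73.2 ± 15.3 RPM in flat cultures (log2 fold change 2.12, adjusted p = 4.3e-05), and no library overlapped. Daam2 averaged 88.7 RPM and 23.1 RPM (2.33, 0.00493). Fmnl2 (3.71, 0.0355) and Fhod3 (2.66, 0.0144) were also higher in every reaggregate, but were called lower in the de Bruijn than in the other flat cultures, with Fmnl2 at 31.4, 0.12, 48.3 and 0 RPM in flat cultures 1 to 4.

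Of 33 other focal adhesion genes, 4 were called higher and 2 lower, and neither these counts nor those of crosslinkers and myosins are read as a result, with 7.32% and 6.53% of all genes called. Nedd9, a scaffold related to p130Cas, averaged 121 RPM in reaggregates and 40.4 RPM in flat cultures (log2 fold change 1.6, adjusted p = 0.000136). Evl, an actin polymerase of the Ena/VASP family, averaged 41.9 RPM and 11.4 RPM (2.73, 0.0204). It was called lower in the de Bruijn than in the other flat cultures, at 11.0, 0.954, 32.0 and 1.7 RPM in flat cultures 1 to 4, of which the 3rd lay within the range of the reaggregates. Pdlim1 and Lims2, at 18.8 RPM each in flat cultures, were called lower (-2.61, 0.0328, and -1.74, 0.0481) and were high in flat cultures 2 and 4 only. Of 15 other crosslinkers and linkers, Marcks (1.11, 0.00285) and Marcksl1 (1.07, 0.0106) were called higher and Anln, an anillin that also serves cytokinesis, lower (-2.59, 0.000412). Of 17 other myosins and regulators, 2 were called higher, among them Myo1e (1.14, 0.00523), and Myl9 lower (-3.10, 0.0441). Of 7 muscle-type genes, Smtn was called higher (1.37, 0.0246) and 1 lower, the sparse Cnn1. Elk4, a ternary complex factor that binds DNA with Srf, was the 1 gene of 3 tested in its list to be called (1.11, 0.00494).

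Further lists were read for state and cell type, and their counts stand beside 6.53% of all genes called lower and 7.32% called higher. All 8 proliferation genes were called lower in reaggregates, among them Aurka (log2 fold change -2.75, adjusted p = 9.2e-05), Ccnb1 (-2.70, 0.000232), Birc5 (-2.46, 0.000659) and Ccna2 (-2.32, 9.2e-05). Their summed level was between 159 and 234 RPM in reaggregates and 1390, 463, 1210 and 557 RPM in flat cultures 1 to 4. Immediate early and stress genes were called higher for 4 of 8, Fosb (4.19, 0.00729), Atf3 (4.08, 0.00124), Fos (2.53, 0.0232) and Jun (1.54, 0.0208). Their summed level was between 2000 and 2530 RPM in reaggregates and 470, 795, 2900 and 859 RPM in flat cultures 1 to 4, so that flat culture 3 was above all reaggregates. Of 12 genes in common use as references, 4 were called lower, among them Pgk1 (-1.53, 0.000179), Rplp0 (-1.33, 0.00741) and Hprt (-1.23, 0.00176). The part of proliferation and stress genes in the cytoskeletal differences was not tested.

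Stromal markers were abundant in all libraries, as the label of the line states, with summed levels between 20900 and 27600 RPM in reaggregates and of 12200, 12700, 19700 and 8840 RPM in flat cultures 1 to 4. Of 9 tested, 6 were called higher, where 7.32% of all genes were. Among them were Col3a1 (log2 fold change 4.11, adjusted p = 0.00439), Col1a1 (1.93, 0.00643), Col1a2 (1.83, 0.00787) and Pdgfrb (1.74, 0.00103). Col1a2 was the most abundant stromal marker in reaggregates. Vim, at 4540 RPM in reaggregates and 6620 RPM in flat cultures, was lower in every reaggregate (-0.54, 0.0787), and Cd44 averaged 475 RPM and 595 RPM (-0.31, 0.117). The surface markers Thy1 and Nt5e stayed at or under 0.359 and 0.972 RPM in every library. Endothelial markers summed to 1.23 RPM or less in every library. Of the blood and macrophage markers Ptprc and Emr1 were at 0 in all libraries, none of 6 tested was called, and the sums ran from 13.4 to 126 RPM. Lyz2 and Cd34 led them except in flat cultures 2 and 4, where Cd34 was at 0 and Lyz2 and Cd68 led. Epithelial markers had Epcam and Krt18 at 0 and summed to 0.958 RPM or less except for 8.06 and 11.2 RPM in flat cultures 2 and 4, where Krt19, the 1 gene of them tested and called lower in reaggregates (-2.19, 0.0397), was the most abundant. Of the 7 adipocyte markers tested, 3 were called lower in reaggregates, where 6.53% of all genes were. They were Fabp4 (-2.37, 0.0385), Pparg (-1.67, 0.0329) and Cebpa (-1.36, 0.019). Skeletal muscle markers summed to 4.70 RPM or less except for 20.2 and 14.4 RPM in flat cultures 2 and 4, nearly all of it Acta1. Ckm, Myh3 and Tnnt3 were at 0 in these cultures. The Acta1 level is uncertain, as reads shared between actins had been divided among them. Hbb-b1, Spi1, Cldn4, Myog and Myod1 were listed as markers but not analysed here.

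The genes called between culture forms lie on different chromosomes of the NCBIM37 assembly: Actg2 at chr6:83462899-83486259, Tpm2 at chr4:43527583-43536637, Tpm4 at chr8:74658874-74677041, Lima1 at chr15:99608901-99705859 and Pdlim7 at chr13:55597156-55615037.

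Because Srf binds the CArG box, promoters of these genes were searched for it on both strands. RefSeq windows on GRCm38.p6, from 250 bases before to 50 bases after a gene's start, were matched for 32 of the 37 genes. Promoters of Actb, Actg2, Pxn, Ptk2 and Parva were not analysed here. Of these 32, 8 had at least 1 CArG box, or 25%, beside 1.81% of the 27025 genes of the RefSeq table: Actg1, Cnn2, Myl6, Vcl, Fhl1, Fhl2, Lima1 and Srf. By window, 9 of 44 had a box, or 20.5%, beside 1.63% of all 32851 promoter windows. A match describes the letters only. The window of Myl6 is that of the gene on chromosome 10, which the value under this name may not describe. The order of reaggregates 3 and 4 highest and 5 and 6 lowest was seen in 5 of the 8 genes with a box and in 13 of the 24 without, or 62.5% and 54.2%. Over all genes tested that had a window, it was seen in 33.8% of 157 with and 26.9% of 9068 without. The windows of Lima1 (chr15:99820100-99820399, minus strand), Vcl (chr14:20929148-20929447, plus strand) and Srf (chr17:46556113-46556412, minus strand) are shown because these genes have a box and differed by over 2-fold between pairs of reaggregates, as did Fhl2, and that of Actg1 (chr11:120348446-120348745, minus strand) because it is the most abundant actin here and varied little. Capitals mark the CArG box, of which Srf has 2.
Lima1: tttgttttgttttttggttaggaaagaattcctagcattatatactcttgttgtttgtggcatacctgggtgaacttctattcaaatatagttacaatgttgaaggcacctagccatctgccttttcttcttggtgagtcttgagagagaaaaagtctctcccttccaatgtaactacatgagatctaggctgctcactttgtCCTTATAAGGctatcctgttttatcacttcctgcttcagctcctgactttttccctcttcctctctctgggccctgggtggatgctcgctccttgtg
Vcl: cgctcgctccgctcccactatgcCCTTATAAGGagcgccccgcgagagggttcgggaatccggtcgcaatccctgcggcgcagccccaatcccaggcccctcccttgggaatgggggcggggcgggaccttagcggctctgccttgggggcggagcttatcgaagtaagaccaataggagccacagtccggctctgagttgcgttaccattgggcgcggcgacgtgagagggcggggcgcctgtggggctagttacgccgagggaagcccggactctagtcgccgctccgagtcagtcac
Srf: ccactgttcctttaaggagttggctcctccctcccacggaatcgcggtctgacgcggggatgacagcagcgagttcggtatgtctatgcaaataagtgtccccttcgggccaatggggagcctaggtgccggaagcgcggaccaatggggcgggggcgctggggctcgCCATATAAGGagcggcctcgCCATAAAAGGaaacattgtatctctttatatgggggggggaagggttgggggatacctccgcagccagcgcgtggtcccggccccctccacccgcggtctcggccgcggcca
Actg1: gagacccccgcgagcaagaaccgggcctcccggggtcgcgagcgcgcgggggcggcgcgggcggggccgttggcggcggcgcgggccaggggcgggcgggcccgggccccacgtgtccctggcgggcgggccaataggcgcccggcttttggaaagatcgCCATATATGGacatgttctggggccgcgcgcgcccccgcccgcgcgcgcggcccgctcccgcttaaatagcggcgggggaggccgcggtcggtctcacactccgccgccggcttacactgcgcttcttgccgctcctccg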

How the data were processed

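RPM values were used as the authors deposited them, 1 per gene for each library. They come from reads aligned with TopHat 1.2.0 to the mouse build NCBIM37 (mm9), and a read with several places was shared out between Ensembl genes. Columns with their log2 fold change and adjusted p from a comparison with DESeq are in the table and were not used. Not all low RPM values were whole multiples of 1 read (between 65.4% and 68.7% of values up to 20 reads were, within 0.1 read), so no count model was run.

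Here log2(RPM + 0.5) was compared with limma 3.58.1 in R 4.3.3 (linear model, empirical Bayes with a mean-variance trend, Benjamini-Hochberg adjustment) over 16933 genes, those whose highest library exceeded 0.5 RPM. Calls needed a fold change of at least 2 and an adjusted p of 0.05 or less. The added 0.5 shrinks the change of low genes. The procedure was tested on simulated data; for 2 libraries against 2, it recovered most changed genes, with more false calls than in the other comparisons and above the nominal share, when the simulated spread was moderated across genes, and none when each gene's own spread was used, and the moderated spread was added after that result was seen. Exon lengths and positions came from GENCODE on NCBIM37. Tables and figures were made with Python 3.11.15, pandas 2.3.3 and matplotlib 3.10.9.

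The members and lists were chosen with earlier results of these data known. Values in every library are given for members called between culture forms, Actb, Actg1, Srf, Mkl1 and Mkl2, other members by means and ranges, and from each other list up to 4 called genes with the largest change and a higher mean of at least 5 RPM. Alternatives were other pseudocounts, filters, scalings and trend, each library left out, subsets of libraries, averaged or blocked consecutive reaggregates and a replicate block. Some results of the other lists are not reported here.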

Additional observations from a re-analysis of the deposited data

How the results depend on the processing

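The comparison of reaggregates with flat cultures was rerun under 23 alternatives. Shares of all genes are given above only for the subsets by flat culture source. Counts under the other alternatives are not read as a result about the list. Genes called lower, 3 as reported, came to 6 against the de Bruijn flat cultures only, 0 against the other flat cultures and 1 with the IL-3 reaggregates only. They came to 2 with consecutive reaggregates averaged, without filter and with the reaggregates without IL-3 only. Quantile normalization also gave 2, as Tpm4 fell to -0.99. Leaving out 1 library at a time gave 0 to 4 genes lower. Genes called higher, 2 as reported, came to 5 against the de Bruijn flat cultures and to 1 each against the other flat cultures, with the IL-3 reaggregates only, with the reaggregates without IL-3 only, with consecutive reaggregates averaged, without filter, without trend, with a pseudocount of 1 and with quantile normalization. Leaving out 1 library at a time gave 1 to 6 genes higher. The median log2 fold change of -0.10 became 0.17 against the other flat cultures. Its sign also turned with quantile normalization (0.02), the replicate block (0.05), without flat culture 2 (0.11) and without flat culture 4 (0.01). Between the flat cultures, the 1 gene called higher in the de Bruijn cultures became 2 with the stricter filter and with quantile normalization, and 0 without filter or without any 1 library.

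The log2 fold change reversed for 12 genes, none with an adjusted p of 0.05 or less as reported, among them Fhl1, which is close to the floor. Against the other flat cultures it was 0.31 for Actn1, 0.47 for Actn4, 0.09 for Flna, 0.10 for Tpm1, -0.22 for Ptk2, 0.51 for Pdlim5 and 0.15 for Fhl1. Against the de Bruijn flat cultures it was -0.28 for Flnc, -0.03 for Pxn, 0.11 for Ilk, -0.20 for Parva and -0.10 for Lasp1. Quantile normalization gave 0.02 for Actn4 and 0.03 for Flna. Leaving out 1 library at a time gave -0.37 to 0.14 for Actn4, -0.19 to 0.11 for Flna, -0.14 to 0.52 for Flnc, -0.24 to 0.05 for Ilk, -0.17 to 0.13 for Parva, -0.11 to 0.24 for Lasp1, -0.44 to 0.14 for Pdlim5 and -0.34 to 0.04 for Fhl1.

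Reaggregates and flat cultures share only replicate numbers. With these as a replicate block, 3 genes were called lower, Tpm2, Tpm4 and Myl6 (-1.06, adjusted p = 0.0166) but not Actg2 (-2.28, 0.0554), and 5 higher, and Flna reversed to 0.05, Tpm1 to 0.16 and Fhl1 to 0.04. Deviations from the group means of libraries with the same number had an r of -0.041, -0.213, 0.072 and 0.155, so the libraries were not taken as paired.

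The comparison rests on 1 cell line and 4 flat cultures, of which 2 have a labelled origin, and the origin of the reaggregated cells is not labelled. Culture form and harvest differ together, and culture form and cell source cannot be told apart in full. RPM values cannot show a change in RNA per cell, and reads shared by near-identical genes were already divided. RNA levels do not measure filaments, adhesions or protein. In the comparisons that leave out 1 of 2 flat cultures of a source, the lone library is assumed to vary like the others. The cause of the differences was not tested.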
